A study of Mus musculus with 12 samples.

Results

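The integrated stress response and the unfolded protein response were followed through 37 genes in mouse embryonic fibroblasts (MEFs) on day 6 of differentiation into adipocytes. The genes were listed by name from known roles, but with earlier results of these data known, so the choice was not independent of them. There were 21 genes of the ATF4 arm (ATF4 and related transcription factors, their targets, and enzymes and transporters of amino acid supply) and 16 of the arm run by XBP1 and ATF6 (chaperones, disulfide isomerases and degradation factors of the endoplasmic reticulum, ER), called the ER arm below. They are 37 of the 37991 gene identifiers counted. All 37 passed the filter on low counts that left 16163 genes for testing, and the lowest count of any member in any library was 345 reads.

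Poly(A) RNA was sequenced in 12 libraries, 3 for each of 4 genotypes: wild type (WT), Gadd45a-KO, Ing1-KO and DKO, which is Gadd45a-/-;Ing1-/-. All came from mice of C57BL/6N background in which germline Gadd45a and Ing1 mutants had been intercrossed, and the fibroblasts were taken from male embryos at E15.5 and passaged 4 times. Every culture, WT included, received insulin (10 µg/ml), rosiglitazone (2 µM), dexamethasone (1 µM) and 3-isobutyl-1-methylxanthine (0.5 mM) for 48 h and then insulin, so no untreated culture and no culture given an ER stressor is part of the comparison. The labels do not say whether replicates are separate embryos or cultures, so p-values measure only the spread between these libraries.

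The integrated stress response starts when kinases that sense amino acid shortage, ER stress, viral RNA or haem shortage phosphorylate the translation factor eIF2. Most translation then slows while that of ATF4 mRNA increases, and ATF4 switches on amino acid transporters, amino acid synthesis and a feedback phosphatase. The unfolded protein response has that same branch, through the ER kinase PERK, and a pair of others: IRE1 splices Xbp1 mRNA, and ATF6 is cut in the Golgi, and the resulting factors induce chaperones and degradation genes of the ER. ATF4 and XBP1 activity is set largely by translation and splicing, which counts per gene do not measure. Adipocytes secrete large amounts of protein, and XBP1 is known to take part in their differentiation.

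Promoter stretches of 10 members are shown because they hold the DNA motifs by which the arms are usually told apart. Windows from 250 bases before to 50 bases after each gene's start were taken from RefSeq (mouse GRCm38.p6) for 32 of the 37 members. Slc7a3, Aldh1l2, Manf, Slc7a5 and Hyou1 had none in the table used. Capitals mark the matched motif on either strand, each stretch runs 5′ to 3′ on the gene's own strand, and the first 5 carry TGATGNAA, the C/EBP-ATF response element (CARE) that ATF4 binds with a C/EBP partner.
Asns (chr6:7693210-7693247, minus strand): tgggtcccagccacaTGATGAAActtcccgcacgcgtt
Atf3 (chr1:191183421-191183458, minus strand): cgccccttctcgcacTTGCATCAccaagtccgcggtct
Chac1 (chr2:119351034-119351071, plus strand): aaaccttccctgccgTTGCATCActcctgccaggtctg
Nupr1 (chr7:126625558-126625595, minus strand): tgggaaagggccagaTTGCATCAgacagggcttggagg
Slc7a11 (chr3:50443638-50443694, minus strand): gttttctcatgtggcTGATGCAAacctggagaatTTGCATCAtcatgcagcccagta
Hspa5 (chr2:34772010-34772058, plus strand): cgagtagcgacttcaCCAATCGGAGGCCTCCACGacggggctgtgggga
Hsp90b1 (chr10:86705518-86705671, minus strand): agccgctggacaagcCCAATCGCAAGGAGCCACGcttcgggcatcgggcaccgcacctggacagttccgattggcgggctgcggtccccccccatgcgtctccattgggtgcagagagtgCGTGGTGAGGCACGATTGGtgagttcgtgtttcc
Creld2 (chr15:88819505-88819553, plus strand): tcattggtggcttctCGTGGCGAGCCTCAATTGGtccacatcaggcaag
Herpud1 (chr8:94386302-94386402, plus strand): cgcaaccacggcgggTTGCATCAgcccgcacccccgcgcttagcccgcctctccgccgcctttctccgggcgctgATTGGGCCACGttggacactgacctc
Vegfa (chr17:46025353-46025390, minus strand): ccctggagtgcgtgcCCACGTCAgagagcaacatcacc
Hspa5, Hsp90b1 and Creld2 carry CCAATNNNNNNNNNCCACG, the ER stress response element (ERSE) bound by ATF6 together with NF-Y. Herpud1 carries a CARE and the related element ERSE-II, ATTGGNCCACG, and Vegfa carries TGACGTGG, the unfolded protein response element (UPRE).

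Both strands of each 300-base window were searched, and the letters CCACG are shared by ERSE, ERSE-II and the complement of UPRE. CARE was found in 6 of the 18 ATF4-arm genes with a window (33.3%: the 5 shown and Trib3), in 1 of the 14 ER-arm genes (Herpud1) and in 4.51% of all 27025 genes with a window. ERSE was found in 6 of 14 ER-arm genes (42.9%: the 3 shown with Calr, Dnajc3 and Pdia6), in none of 18 ATF4-arm genes and in 0.137% of all genes. ERSE-II was found in 2 ER-arm genes, Herpud1 and Dnajb11, and in 0.0444% of all genes, and UPRE in Vegfa alone among members and in 0.714% of all genes. A match is a description of letters in this window, the lists were drawn up from known targets, and no match says nothing about a factor.

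Each library held 42891627 to 52860419 reads in genes. Ing1 RNA followed its label: it was at 43.6 to 47.9 CPM (a gene's reads scaled to the size of its library) in WT, 44.4 to 47.3 in libraries labelled Gadd45a-KO, 1.00 to 1.60 in Ing1-KO and 0.681 to 1.15 in libraries labelled DKO. Gadd45a RNA went against its label: it was at 14.5 to 17.9 CPM in WT and 13.4 to 18.4 in Ing1-KO, but at 141 to 144 in libraries labelled Gadd45a-KO and 138 to 142 in libraries labelled DKO. Counts per gene cannot show whether the deleted part of the allele is among those reads, so directions are given for the labelled libraries. All 12 fibroblast markers were at 1 CPM or more in every library. The adipocyte score, the mean log2 CPM of 15 adipocyte markers such as Fabp4 and Adipoq, ran from 4.87 to 6.01 in WT, 4.34 to 4.73 in libraries labelled Gadd45a-KO, 2.62 to 5.84 in Ing1-KO and 1.87 to 2.21 in libraries labelled DKO, where all 15 markers had reads except Retn, at 0 in replicate 3. The leukocyte score, over 12 markers such as Ptprc, was 6.29 to 6.46 in WT, 5.63 to 6.93 in libraries labelled Gadd45a-KO, 6.40 to 6.65 in Ing1-KO and 7.30 to 7.32 in libraries labelled DKO.

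The chaperones Calr, Hspa5 and Hsp90b1 were the most abundant members, and Slc7a11 and Atf3 the least. Per kilobase of exon, Calr, a calcium-binding lectin, had a mean of 402.7 CPM over the 12 libraries. Hspa5, the Hsp70 chaperone BiP, followed at 284.6 CPM per kilobase and Hsp90b1, the ER Hsp90, at 275.3. Atf4 itself stood at 113.7 and Atf5, a related stress factor, at 128.4 CPM per kilobase. At the other end were Atf3, a stress-induced transcription factor, at 4.80, and Slc7a11, the cystine-glutamate exchanger, at 1.83 CPM per kilobase.

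The arms differed in how far libraries of the same genotype lay apart. The within-genotype SD of log2 CPM had a median of 0.137 over the ATF4 arm and 0.0451 over the ER arm, beside 0.0781 over the 10838 genes at a mean of 5 CPM or more. It was highest in Slc7a3, a cationic amino acid transporter (0.291), Chac1, which degrades glutathione (0.284), and Slc7a5, the light chain of the large neutral amino acid transporter (0.247), and lowest in Pdia4, a disulfide isomerase (0.0238). From the lowest to the highest of the 12 libraries, ATF4-arm genes spanned 1.2-fold (Aldh1l2) to 2.24-fold (Slc7a3), and ER-arm genes 1.07-fold (Hspa5) to 1.36-fold (Sdf2l1).

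**Figure D1:**
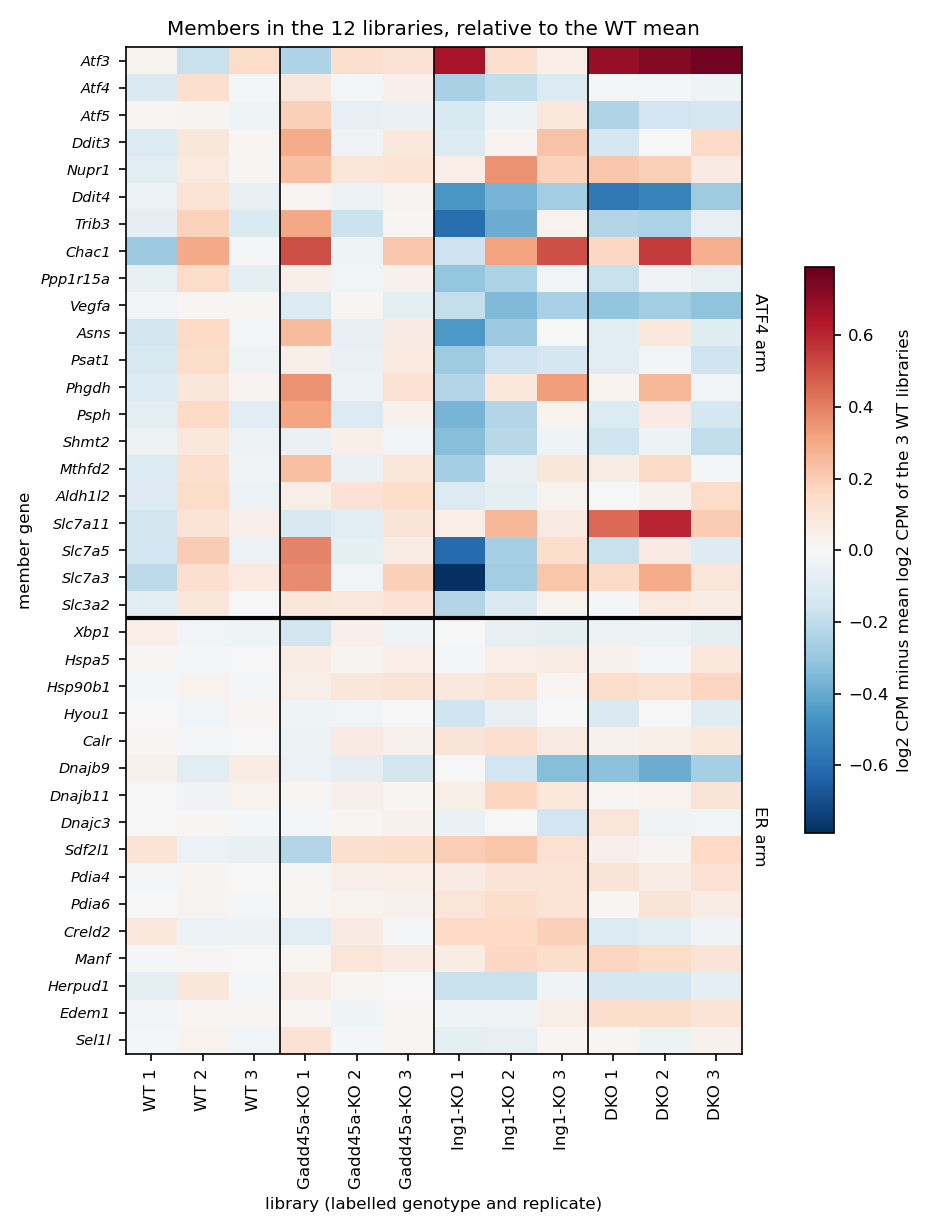
Colour shows log2 CPM of each member in each of the 12 libraries (columns, by labelled genotype and replicate) minus the mean of the 3 WT libraries. The 21 ATF4-arm genes above the thick line vary within genotypes, with Ing1-KO replicate 1 the lowest of the 12 libraries for 13 of them, while most of the 16 ER-arm genes below it stay near 0.

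Of the members, 11 share exonic bases with another counted gene, most of them on the opposite strand: 14.1% of Aldh1l2 with D10Wsu102e, 10.4% of Psph with Cct6a, 4.71% of Manf with an antisense RNA and 3.97% of Ddit3 with Mars. The library kit does not mark strand, so reads from those bases cannot be assigned.

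Single libraries carried much of the spread in the ATF4 arm. Ing1-KO replicate 1 was the lowest of the 12 for 13 of 21 genes, libraries labelled Gadd45a-KO had the highest value in replicate 1 for 9, and WT replicate 2 was the highest of all for 7. Within WT, replicate 2 was the highest for 20 of 21 genes. Within Ing1-KO, replicate 1 was the lowest for 19 genes and replicate 3 the highest for 17. The WT and Ing1-KO libraries named here also differed in adipocyte score: 4.87 in WT replicate 2 against 6.01 and 5.93 in the other WT libraries, and 5.84, 4.32 and 2.62 in Ing1-KO replicates 1, 2 and 3. Replicate 1 labelled Gadd45a-KO, at an adipocyte score of 4.67, lay between the 4.73 and 4.34 of the others with that label, but had a leukocyte score of 5.63 against their 6.93 and 6.79. The part of adipocyte or leukocyte content in the result was not tested beyond the covariate fits given later.

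The comparison of libraries labelled Gadd45a-KO with WT asks what the Gadd45a lesion does when Ing1 is intact. Members stayed close to WT. Atf4 was at 254, 302 and 272 CPM in WT and at 293, 272 and 283 CPM in the labelled libraries, which overlap. Hspa5 was at 1186, 1173 and 1180 CPM in WT and at 1227, 1200 and 1224 CPM in the labelled libraries. Its labelled libraries all lay above WT, but the log2 fold change was 0.04 ± 0.04 (SE; edgeR, adjusted p = 0.937). In edgeR's quasi-likelihood test, with a call at an adjusted p under 0.05, 0 of the 37 members were called, against 0.0124% of all genes. An unadjusted p under 0.05 was found for 0 members, beside 5.28% of all genes. DESeq2 also called 0, beside 0.0433% of all genes. The median log2 fold change was 0.08 over the ATF4 arm, 0.02 over the ER arm and 0.00 over all genes tested. These are whole cultures, in which fewer cells of a type and less RNA per cell cannot be told apart.

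The comparison of Ing1-KO with WT asks what loss of Ing1, a reader of a histone methylation mark, does to these genes. Ddit4 and Vegfa fell, both of the ATF4 arm and both also known to be induced by low oxygen, whose part was not tested. Ddit4 encodes REDD1, an inhibitor of mTORC1: it was at 170.0, 189.4 and 168.4 CPM in WT and at 127.5, 136.5 and 145.3 CPM in Ing1-KO. The 3 Ing1-KO libraries lay below the 3 WT libraries, and the log2 fold change was -0.37 ± 0.08 (SE; edgeR, adjusted p = 0.0268). Vegfa, an angiogenic growth factor, was at 332.9, 340.4 and 339.6 CPM in WT and at 296.1, 265.2 and 282.8 CPM in Ing1-KO. It too did not overlap between the genotypes, and its log2 fold change was -0.26 ± 0.05 (SE; edgeR, adjusted p = 0.0128).

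These were 2 of 37 members called, both lower, against 4.15% of all genes called either way and 1.84% called lower. The Ddit4 call was lost without any 1 of the WT libraries and without Ing1-KO replicate 1 or 2 (edgeR, adjusted p up to 0.110), with a log2 fold change of -0.41 to -0.31 over the 12 fits that each left out 1 library. The Vegfa call was lost without WT replicate 2 or 3 or Ing1-KO replicate 2 (edgeR, adjusted p up to 0.0651), with a log2 fold change of -0.30 to -0.22.

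The amino acid genes of the ATF4 arm showed no call in Ing1-KO, with wide spread. Asns, asparagine synthetase, was at 134.7, 166.4 and 147.7 CPM in WT and at 108.6, 122.2 and 148.9 CPM in Ing1-KO. Slc7a5 was at 111, 142 and 120 CPM in WT and at 81.4, 103 and 137 CPM in Ing1-KO. In both genes Ing1-KO replicate 3 lay within the WT range and replicates 1 and 2 below it. Psat1, an enzyme of serine synthesis, was at 171.7, 206.1 and 182.9 CPM in WT and at 153.5, 166.3 and 170.0 CPM in Ing1-KO, with no overlap and a log2 fold change of -0.19 ± 0.07 (SE; edgeR, adjusted p = 0.134). Over the 21 genes the median log2 fold change was -0.18, with 15 negative, beside 0.00 over all genes. Without Ing1-KO replicate 1 that median was -0.04.

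Apart from Ddit4, Vegfa, Atf3 and Slc7a11, no ATF4-arm member was called in any of the 5 comparisons of 2 genotypes. Trib3 was at 72.3, 86.0 and 70.2 CPM in WT and at 50.3, 57.7 and 77.3 CPM in Ing1-KO, with the same replicate pattern as Asns. Slc7a3 was at 18.5, 23.5 and 22.5 CPM in WT and at 12.4, 17.7 and 24.9 CPM in Ing1-KO. Chac1 ran the other way, at 10.2, 15.3 and 12.3 CPM in WT and 11.1, 15.51 and 17.7 CPM in Ing1-KO. All 3 genes overlapped between the genotypes. Over the 12 libraries Ddit3, the pro-apoptotic factor CHOP, lay between 48.5 and 65.0 CPM and Nupr1, a stress-induced chromatin protein, between 76.4 and 103.6 CPM. Atf5 lay between 223.2 and 299.9 CPM, and Ppp1r15a, the feedback phosphatase subunit GADD34, between 26.8 and 36.7 CPM. Of the serine and folate enzymes, Phgdh lay between 34.9 and 52.5 CPM, Psph between 18.9 and 30.3, Shmt2 between 93.7 and 125.4, Mthfd2 between 65.9 and 93.3 and Aldh1l2 between 205.3 and 245.3. Slc3a2, the shared heavy chain of several amino acid transporters, lay between 135.9 and 173.0 CPM.

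In the ER arm edgeR called 0 of 16 genes in Ing1-KO, beside 4.15% of all genes. It gave 7 of the 16 an unadjusted p under 0.05, beside 20.6% of all genes. DESeq2 called 4. Of the log2 fold changes 9 were positive and 7 negative, with a median of 0.05. For 7 of 16 genes, Calr, Dnajb11, Sdf2l1, Pdia4, Pdia6, Creld2 and Manf, all 3 Ing1-KO libraries lay above all 3 WT libraries, and for none did they lie below; over all genes 14.2% lay above without overlap. Creld2, a secreted stress protein, was at 40.4, 37.1 and 37.3 CPM in WT and at 42.6, 42.7 and 43.6 CPM in Ing1-KO. Its log2 fold change was 0.17 ± 0.05 (SE; edgeR, adjusted p = 0.0751). In the ATF4 arm 3 of 21 genes, Ddit4, Vegfa and Psat1, lay below WT without overlap, beside 12.5% of all genes. Among the others of the 7, Calr was at 1135, 1112 and 1127 CPM in WT and at 1206, 1231 and 1181 CPM in Ing1-KO. Pdia6, a disulfide isomerase, was at 386.1, 392.1 and 382.8 CPM in WT and at 413.3, 425.5 and 417.6 CPM in Ing1-KO. The gaps between genotypes were small next to the levels: the log2 fold changes were 0.10 ± 0.04 for Calr and 0.11 ± 0.03 for Pdia6 (SE; edgeR, adjusted p = 0.174 and 0.0801). The co-chaperones Dnajb11, Dnajc3 and Sdf2l1 lay between 105.4 and 121.1, 184.5 and 218.1, and 14.2 and 19.4 CPM over the 12 libraries, Hyou1, a nucleotide exchange factor for BiP, between 173.6 and 196.0 CPM, and the degradation factors Herpud1 and Sel1l between 80.9 and 96.9 and between 276.8 and 315.0 CPM. DESeq2 called 6 members, beside 7.82% of all genes: Ddit4 and Vegfa lower, and Pdia4, Pdia6, Creld2 and Manf higher. In the same libraries 3 of 9 cartilage and bone markers tested were called higher by edgeR, Acan, Col10a1 and Comp. The summed level of the 10 markers listed was 72.2 to 127 CPM in Ing1-KO and 54.7 to 83.6 in libraries labelled DKO, against 41.2 to 47.6 in WT and 38.8 to 41.4 in libraries labelled Gadd45a-KO. Bglap, the osteocalcin gene, had 0 to 3 reads in every library. The part of the source of these transcripts in the members' levels was not tested.

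**Figure D2:**
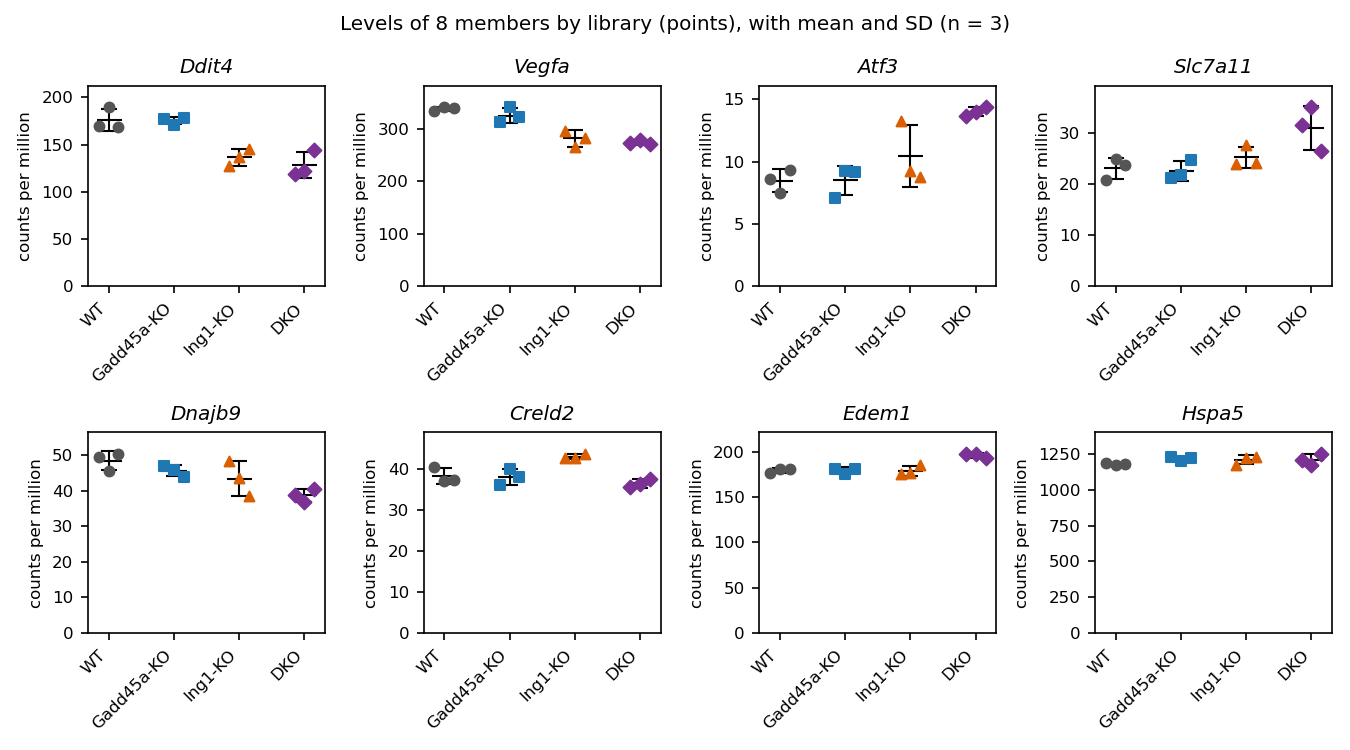
Points are CPM in single libraries for 8 members, 3 for each labelled genotype, and bars show the mean and SD. Ddit4 and Vegfa lie lower in both Ing1-KO and DKO than in the other genotypes, Atf3 and Slc7a11 lie higher in DKO than in WT, and Hspa5 stays between 1170 and 1250 CPM.

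The comparison of libraries labelled DKO with WT carried the most calls among members. Of 37 members 5 rose and 3 fell, against 13% of all genes called either way, 5.88% higher and 7.11% lower. In the ATF4 arm Atf3 and Slc7a11 rose and Ddit4 and Vegfa fell. In the ER arm Hsp90b1, Manf and Edem1 rose by small amounts and Dnajb9 fell.

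Atf3 was at 8.60, 7.48 and 9.36 CPM in WT and at 13.6, 14.0 and 14.3 CPM in libraries labelled DKO. The groups did not overlap, and the log2 fold change was 0.72 ± 0.16 (SE; edgeR, adjusted p = 0.0170). Slc7a11, which imports cystine for glutathione synthesis, was at 20.9, 24.9 and 23.7 CPM in WT and at 31.5, 35.1 and 26.5 CPM in the labelled libraries. Its lowest labelled library lay just above the highest WT library, and the log2 fold change was 0.42 ± 0.11 (SE; edgeR, adjusted p = 0.0294). Both promoters carry the CARE motif printed above, as do those of Asns, Chac1 and Nupr1, which were not called.

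Ddit4 was at 118.9, 122.0 and 144.3 CPM in libraries labelled DKO, all below the 168.4 of the lowest WT library. Its log2 fold change was -0.45 ± 0.08 (SE; edgeR, adjusted p = 0.00765). Vegfa was at 271.9, 279.3 and 270.3 CPM there, all below the 332.9 of the lowest WT library, with a log2 fold change of -0.30 ± 0.05 (SE; edgeR, adjusted p = 0.00522). Both calls held in each of the 12 fits that left out 1 library. The remaining ATF4-arm genes were not called, and Atf4 was at 272, 274 and 269 CPM, inside its WT range of 254 to 302.

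Dnajb9, also called ERdj4, is a co-chaperone of BiP and a known XBP1 target. It was at 49.7, 45.5 and 50.4 CPM in WT and at 38.7, 36.9 and 40.5 CPM in libraries labelled DKO, with no overlap. Its log2 fold change was -0.33 ± 0.08 (SE; edgeR, adjusted p = 0.0202). With the adipocyte score in the fit it became 0.07 (edgeR, adjusted p = 0.707). Xbp1 itself was at 164.9, 157.3 and 155.9 CPM in WT and 154.9, 154.7 and 151.4 CPM in the labelled libraries, which lay below WT without overlap but by little.

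Edem1, which directs misfolded glycoproteins to degradation, was at 176.9, 181.6 and 180.8 CPM in WT and at 197.9, 197.7 and 193.6 CPM in libraries labelled DKO. The groups did not overlap, and the log2 fold change was 0.13 ± 0.03 (SE; edgeR, adjusted p = 0.0296). Hsp90b1 was at 1042, 1073 and 1048 CPM in WT and at 1161, 1145 and 1187 CPM in the labelled libraries, with no overlap and a log2 fold change of 0.14 ± 0.04 (SE; edgeR, adjusted p = 0.0356). Manf, a secreted ER stress factor, was at 122.5, 124.6 and 124.2 CPM in WT and at 139.2, 136.9 and 133.0 CPM in the labelled libraries, with no overlap and a log2 fold change of 0.14 ± 0.04 (SE; edgeR, adjusted p = 0.0322). Hspa5, the BiP gene, was at 1208, 1170 and 1250 CPM in the labelled libraries and overlapped WT. The median log2 fold change was -0.02 over the ATF4 arm, 0.04 over the ER arm and 0.00 over all genes.

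Only the Ddit4 and Vegfa calls among these 8 held without every library in turn. Atf3 was lost without WT replicate 1 or DKO replicate 1 (edgeR, adjusted p up to 0.0712), Slc7a11 and Dnajb9 without WT replicate 1 or 3 or DKO replicate 1 or 2 (up to 0.123 and 0.0851), Edem1 without any WT library or DKO replicate 1 or 2 (up to 0.115), Manf without those or Gadd45a-KO replicate 3 (up to 0.121), and Hsp90b1 without any WT or DKO library, Gadd45a-KO replicate 3 or Ing1-KO replicate 2 (up to 0.127), while the log2 fold changes kept their sign. With no filter on low counts the calls of Edem1, Hsp90b1 and Manf were also lost (edgeR, adjusted p = 0.0605, 0.0528 and 0.0579), and that of Edem1 under upper-quartile scaling (0.0546). In the same libraries 14 of 15 adipocyte markers were called lower and 6 of 12 leukocyte markers higher, and of 9 cartilage and bone markers 3 were called higher (Acan, Col2a1 and Col10a1) and Sox9 lower, with summed adipocyte marker levels of 292 to 411 CPM in libraries labelled DKO against 1820 to 3744 in WT. Their part in the members' changes was not tested beyond the covariate fit given later.

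**Figure D3:**
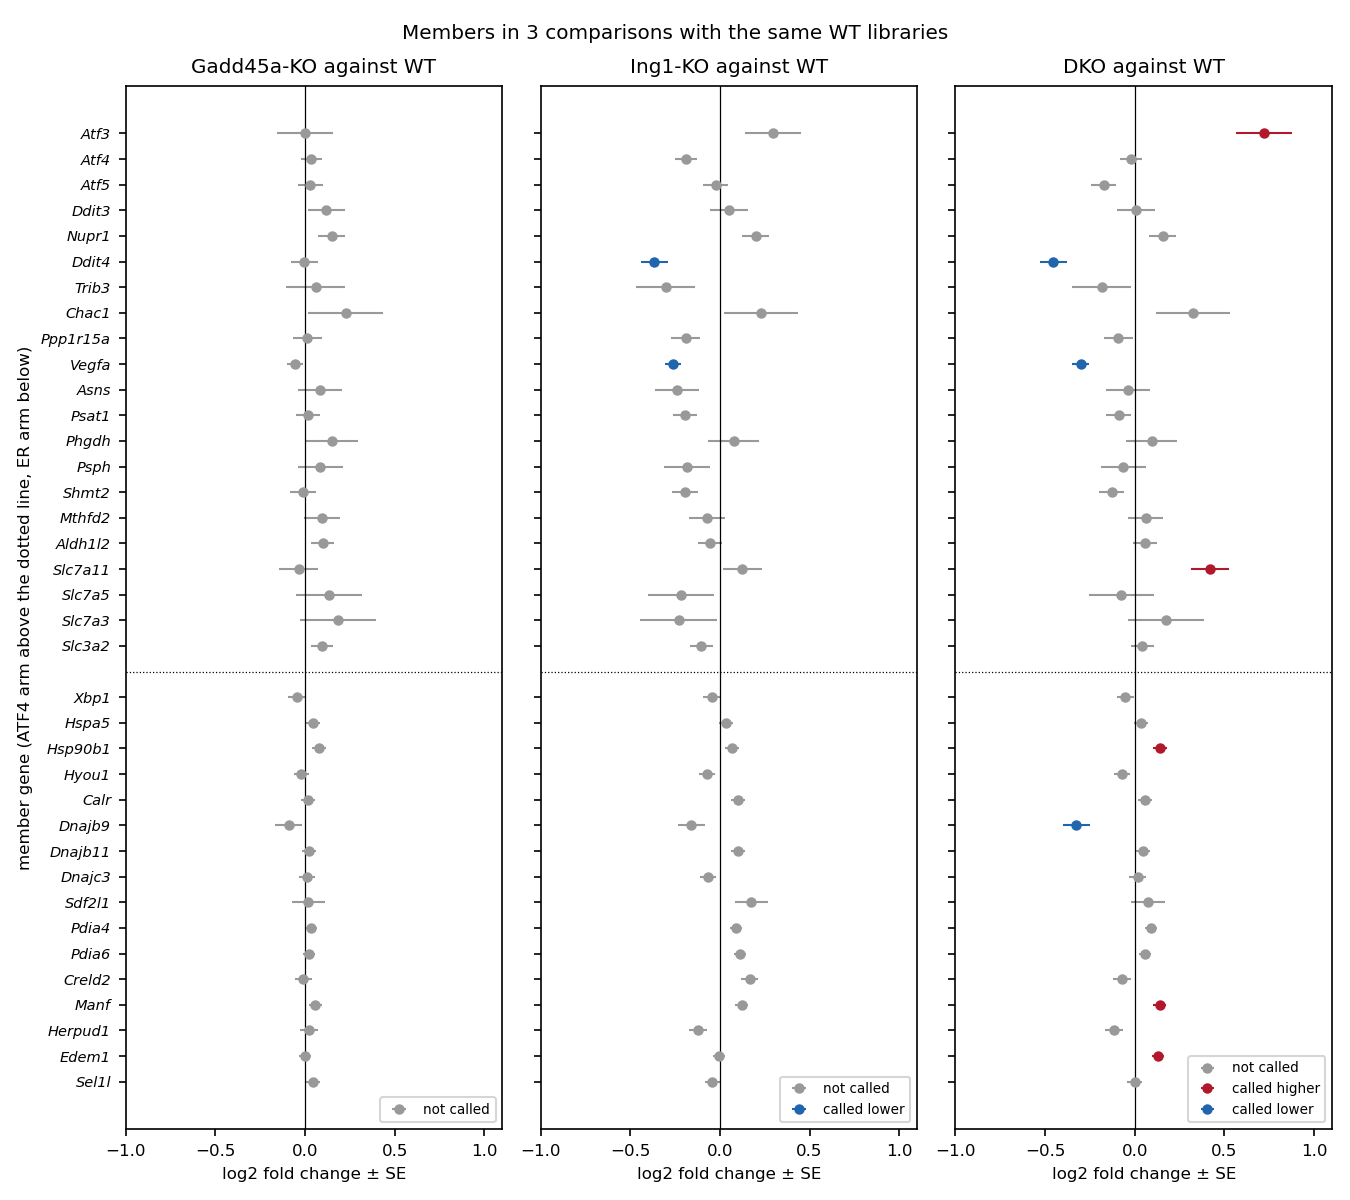
Points are edgeR log2 fold changes of the 37 members with bars of 1 SE, in 3 comparisons that share the 3 WT libraries. Coloured points passed the adjusted p threshold of 0.05: 0 in the libraries labelled Gadd45a-KO, 2 in Ing1-KO and 8 in those labelled DKO, and the ATF4 arm above the dotted line spreads more widely than the ER arm.

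The libraries labelled DKO were next set beside each labelled single mutant. Against libraries labelled Gadd45a-KO, which ask for the effect of Ing1 loss on that background, 2 of 37 members were called, beside 1.19% of all genes either way and 0.557% lower. Ddit4 was at 177.3, 170.8 and 178.4 CPM in libraries labelled Gadd45a-KO, above all 3 of those labelled DKO, and its log2 fold change was -0.45 ± 0.08 (SE; edgeR, adjusted p = 0.0249). Vegfa was at 313.2, 340.4 and 321.3 CPM in libraries labelled Gadd45a-KO, again with no overlap, and its log2 fold change was -0.25 ± 0.05 (SE; edgeR, adjusted p = 0.0343). Atf3 had a log2 fold change of 0.72 ± 0.16 and just missed the threshold (SE; edgeR, adjusted p = 0.0511). The Ddit4 call was lost without Gadd45a-KO replicate 2 or 3 or DKO replicate 1 or 2 (edgeR, adjusted p up to 0.124), and the Vegfa call without those or any WT library (up to 0.163).

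Against Ing1-KO, the comparison asks for the Gadd45a lesion when Ing1 is lost. Here 2 of 37 members were called, beside 12% of all genes either way, 5.93% higher and 6.02% lower. Creld2 was at 42.6, 42.7 and 43.6 CPM in Ing1-KO and at 35.5, 36.2 and 37.6 CPM in libraries labelled DKO, with no overlap and a log2 fold change of -0.24 ± 0.05 (SE; edgeR, adjusted p = 0.0207). Edem1 was at 175.4, 176.5 and 185.5 CPM in Ing1-KO, below every library labelled DKO, with a log2 fold change of 0.13 ± 0.03 (SE; edgeR, adjusted p = 0.0316). Both calls were lost without Ing1-KO replicate 1 or 2 or DKO replicate 1 or 2, and Edem1 also without WT replicate 3 (edgeR, adjusted p up to 0.0884 for Creld2 and 0.110 for Edem1). The Edem1 call was lost too under upper-quartile scaling, with no filter and with only the compared libraries (edgeR, adjusted p = 0.0686, 0.0655 and 0.0790). The arm median was 0.11 for the ATF4 arm and 0.00 for the ER arm, beside -0.01 over all genes.

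The test of whether the DKO label departs from the sum of its 2 labelled lesions called 0 of 37 members, against 0% of all genes. In edgeR 2 of 37 members had an unadjusted p under 0.05, beside 13.6% of all genes. They were Creld2, with a log2 difference of -0.23 ± 0.07, and Edem1, with 0.13 ± 0.05 (SE). DESeq2 called 0 members, beside 1.08% of all genes. A test for any difference among the 4 genotypes called 6 members, Vegfa, Ddit4, Atf3, Creld2, Edem1 and Slc7a11, beside 11.7% of all genes. DESeq2 called 12 there, beside 23.8% of all genes.

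Across the 6 Ing1-KO and DKO libraries and the other 6, 3 members did not overlap. Ddit4 lay between 118.9 and 145.3 CPM against 168.4 to 189.4, and Vegfa between 265.2 and 296.1 against 313.2 to 340.4, beside 1.63% of all genes lower without overlap. Pdia4 lay higher, between 339.4 and 351.7 CPM against 321.4 to 338.2, beside 1.38% of all genes higher without overlap. Pdia4 was called by edgeR in none of the comparisons. DESeq2 called it higher in Ing1-KO and in libraries labelled DKO, both against WT (DESeq2, adjusted p = 0.0385 and 0.0147). The shares of all genes that DESeq2 called there were 7.82% and 17.1%.

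Members of the ATF4 arm moved together between libraries of the same genotype, and those of the ER arm did so little. After each genotype's mean was removed, Pearson's r over the 12 libraries had a median of 0.64 among the 210 pairs of the ATF4 arm, with 170 positive. It was 0.11 among the 120 pairs of the ER arm, with 76 positive, and 0.04 between the arms. Leaving out each library in turn moved the ATF4-arm median between 0.510, without Ing1-KO replicate 1, and 0.728. These pairs share libraries, depth and scaling, so the values are a description. No value for pairs of other genes is given beside them, so it is not known how far 0.64 exceeds that of other gene sets.

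Not every member followed its arm. With Atf4, the closest were Psat1 (r = 0.90), Asns (0.88), Mthfd2, a mitochondrial folate enzyme (0.88), and Chac1 (0.87). Atf3 ran against the other ATF4-arm genes, with a median r of -0.72, and Vegfa also (-0.31), while Slc7a11 was weakly with them (0.22). Among ER-arm genes, the degradation factors Edem1, Herpud1 and Sel1l had median r of 0.72, 0.68 and 0.56 with the ATF4 arm, and Dnajb9 and Xbp1 of -0.67 and -0.65. Herpud1 is the ER-arm gene whose window carries both a CARE and an ERSE-II. Edem1 and Sel1l had no CARE in theirs, and Atf3, which has a CARE, ran against its arm. A part of the motif in these correlations was not tested.

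**Figure D4:**
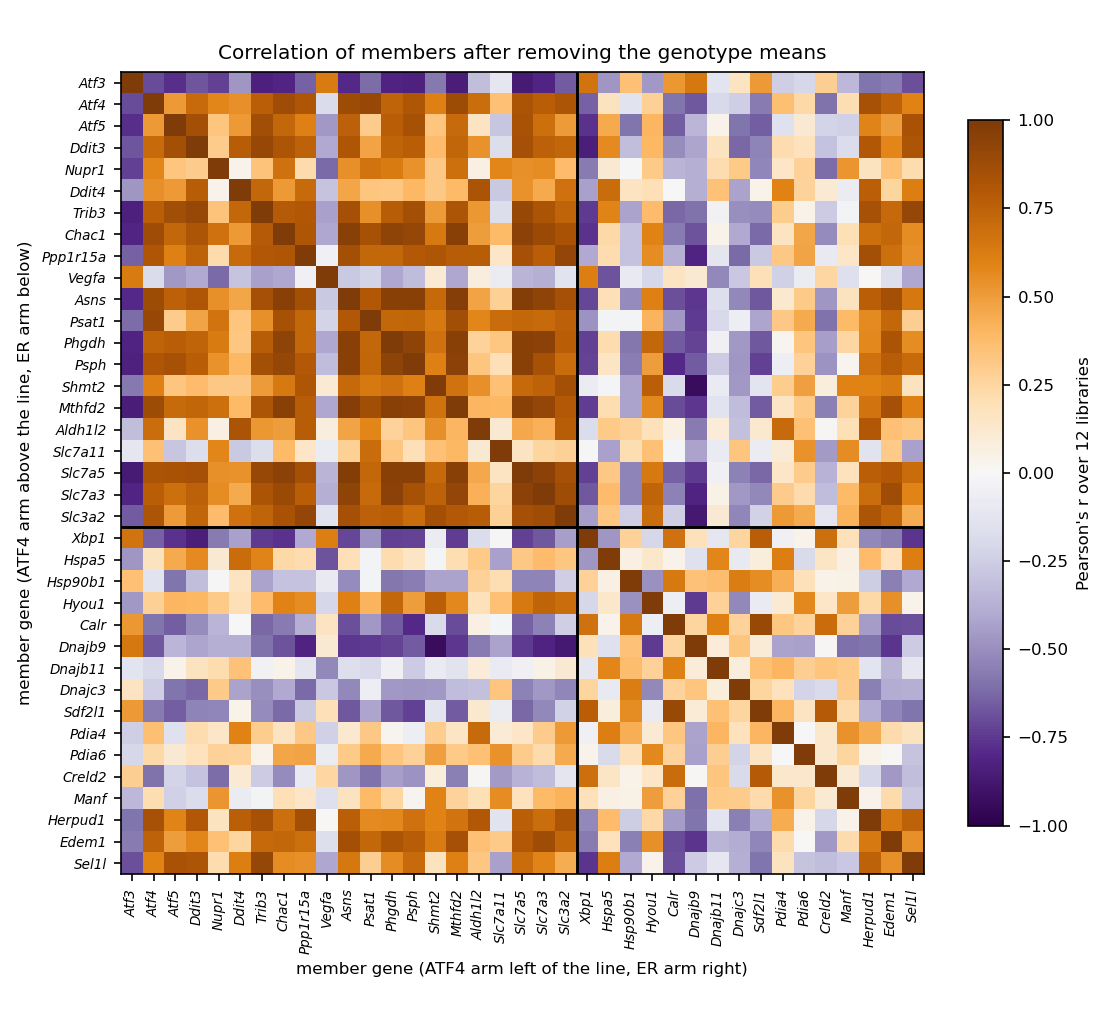
Colour shows Pearson's r between members over the 12 libraries after removal of genotype means. The ATF4 block at the upper left is mostly positive (170 of 210 pairs) except for Atf3 and Vegfa, the ER block at the lower right is mixed, and Herpud1, Edem1 and Sel1l follow the ATF4 block.

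Members of the ATF4 arm also followed the adipocyte score within genotypes. The fitted slope of log2 level on the score was negative for 19 of 21 ATF4-arm genes, with a median of -0.10, against 9 of 16 ER-arm genes (median -0.0044) and 50.5% of all genes. It was steepest in Slc7a3 (-0.30), Chac1 (-0.24) and Slc7a5 (-0.23), while Atf3 (0.18) and Dnajb9 (0.11) sloped the other way. The libraries spread most in score are the 3 of Ing1-KO. In WT and Ing1-KO the ATF4-arm median of a library rose with each step down in score. The other genotypes did not show that order. Libraries labelled Gadd45a-KO, at scores of 4.67, 4.73 and 4.34, had medians of 0.19, -0.04 and 0.08. Those labelled DKO, at 1.92, 1.87 and 2.21, had -0.08, 0.06 and -0.03.

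With the score as a covariate, the Ing1-KO comparison with WT called 12 of 21 ATF4-arm genes and 1 of 16 ER-arm genes. Against a background of 9.79% of all genes either way, 4.95% lower and 4.84% higher, 11 of the ATF4-arm genes were lower: Atf4, Ddit4, Trib3, Ppp1r15a, Vegfa, Asns, Psat1, Shmt2, Slc7a5, Slc7a3 and Slc3a2. Slc7a3 had the largest adjusted change, with a log2 fold change of -0.68 ± 0.12 (SE; edgeR, adjusted p = 0.00845), Trib3, a pseudokinase that dampens ATF4, had -0.57 ± 0.14 (adjusted p = 0.0313), and Asns had -0.45 ± 0.09 (adjusted p = 0.0124). Atf3 was higher, and Herpud1 in the ER arm was lower. Without Ing1-KO replicate 1 the same fit called 0 ATF4-arm genes lower, against 1.3% of all genes called, and without WT replicate 2 it called 2. Without any other 1 library it called 8 to 13.

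In the same covariate fit, the libraries labelled DKO against WT gave 2 called members, against 0.328% of all genes: Atf3 higher and Shmt2, the mitochondrial serine hydroxymethyltransferase, lower. Besides that of Dnajb9, the log2 fold changes of the 8 called members that moved by over 1.5 times were those of Edem1, to 0.03, Manf, to 0.05, Slc7a11, to 0.27, and Atf3, to 1.39 (edgeR, adjusted p = 0.861, 0.802, 0.620 and 0.0357). The adipocyte scores of the libraries labelled DKO do not overlap those of WT, so adipocyte extent and the labelled genotype cannot be told apart in that comparison. Their leukocyte scores, 7.30 to 7.32 against 6.29 to 6.46 in WT, do not overlap either. Leukocyte content and the labelled genotype thus cannot be told apart there, for Atf3 as for other members.

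**Figure D5:**
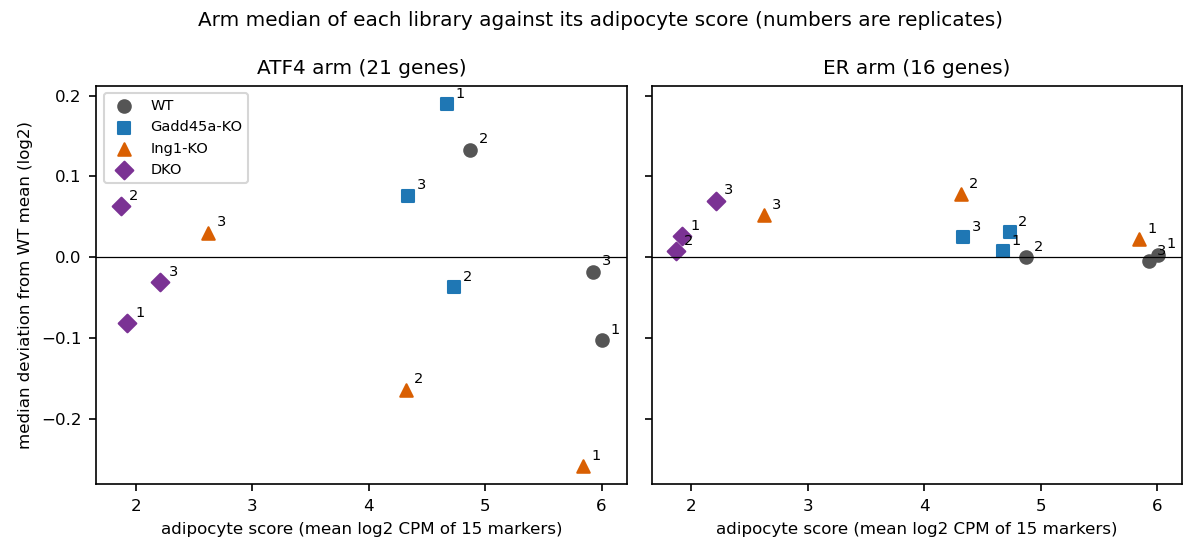
Each point is a library: the vertical axis is the median over an arm of log2 CPM minus the WT mean, and the horizontal axis its adipocyte score in log2 CPM. ATF4-arm medians run from -0.26 in Ing1-KO replicate 1 to 0.19 in replicate 1 labelled Gadd45a-KO, while ER-arm medians all lie between -0.005 and 0.078.

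Other genes of these pathways were counted from lists drawn up by known function, also with earlier results of these data known. Of the 112 genes in 6 lists, edgeR called 0 in libraries labelled Gadd45a-KO against WT. It also called 0 in libraries labelled DKO against those labelled Gadd45a-KO. At an unadjusted p under 0.05 there were 5 and 20 of the 112, beside 5.28% and 19.9% of all genes. DESeq2 called 0 and 6 there, the latter beside 7.63% of all genes. Among 23 further ATF4 targets, edgeR called 2 lower and 1 higher in Ing1-KO than in WT, beside 4.15% of all genes either way, and DESeq2 called 4, beside 7.82%. Stc2, a secreted glycoprotein, was at 98.5, 115.4 and 104.8 CPM in WT and at 82.2, 68.1 and 71.1 CPM in Ing1-KO, with no overlap and a log2 fold change of -0.53 ± 0.08 (SE; edgeR, adjusted p = 0.00854). Cth, which makes cysteine from cystathionine, was at 13.2, 14.5 and 13.2 CPM in WT and at 7.96, 7.495 and 10.8 CPM in Ing1-KO, with a log2 fold change of -0.64 ± 0.13 (SE; edgeR, adjusted p = 0.0229). Pycr1, of proline synthesis, was higher, with a log2 fold change of 0.27. Cth was also the 1 gene of this list that edgeR called against WT in libraries labelled DKO, at a log2 fold change of -0.56, beside 13% of all genes. DESeq2 called 2 there, beside 17.1%.

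Among 33 further ER folding and degradation genes, 1 fell and 2 rose in Ing1-KO against WT in edgeR, beside 4.15% of all genes called. DESeq2 called 5, beside 7.82%. Ero1l, the oxidase that recharges disulfide isomerases, was at 491.9, 558.5 and 512.1 CPM in WT and at 424.4, 351.1 and 364.7 CPM in Ing1-KO. The genotypes did not overlap, and the log2 fold change was -0.45 ± 0.07 (SE; edgeR, adjusted p = 0.00723). Like Ddit4, Vegfa and Stc2, Ero1l is also known to be induced by low oxygen. These genes were put together after their calls were seen. No list of low-oxygen genes was counted, and a part of oxygen was not tested. Fkbp14, a prolyl isomerase, and Ostc, of the oligosaccharyltransferase, rose by log2 fold changes of 0.22 and 0.15. In libraries labelled DKO Ero1l fell by 0.25 on the log2 scale, and Edem3, a mannosidase of ER degradation, and Sec11c, of the signal peptidase, rose by 0.17 and 0.33. These were 3 of 33 called by edgeR, beside 13% of all genes, and DESeq2 called 7, beside 17.1%.

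Mitochondrial unfolded protein response genes lay lower in libraries labelled DKO than in WT, with 9 of 10 log2 fold changes negative. Called lower by edgeR were 4 of 10, beside 7.11% of all genes: the proteases and chaperones Lonp1, Trap1, Dnaja3 and Hspd1, at log2 fold changes of -0.20, -0.21, -0.18 and -0.19. With the adipocyte score as covariate all 4 calls were lost, in a fit that called 0.328% of all genes. The part of adipocyte content was not tested beyond that fit. Hspd1 was the 1 gene of that list that edgeR called in Ing1-KO against WT, at -0.24, beside 4.15% of all genes. DESeq2 called 3, beside 7.82%. Of 10 cytosolic heat shock genes, edgeR called Hsp90aa1 lower in Ing1-KO (-0.17) and Bag3 lower in libraries labelled DKO (-0.21), both against WT. The shares of all genes called lower there were 1.84% and 7.11%. DESeq2 called 2 and 1, beside 7.82% and 17.1% of all genes either way. In libraries labelled DKO against Ing1-KO, edgeR called Hsp90aa1 higher and Bag3 lower, beside 12% of all genes either way. None of 20 cytosolic aminoacyl-tRNA synthetases, a group that ATF4 is known to induce, was called by edgeR in any comparison of 2 genotypes. All genes called there ran from 0.0124% to 13%. In each comparison 0 to 4 of the 20 had an unadjusted p under 0.05 in edgeR, beside 5.28% to 32.2% of all genes. DESeq2 called 0 or 1, beside 0.0433% to 18.1% of all genes.

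Of 16 genes listed as stress sensors and eIF2 machinery, edgeR calls fell mainly between libraries labelled DKO and Ing1-KO. There 4 were higher and 2 lower, beside 5.93% and 6.02% of all genes. Not all of those called are sensors, and Eif2ak3, the gene of PERK, and Ern1, that of IRE1, were not among them. DESeq2 called 6 of 16, beside 18.1% of all genes either way. Atf6, the cleaved ER sensor, was at 83.1, 83.7 and 91.7 CPM in Ing1-KO and at 104.0, 110.3 and 99.6 CPM in libraries labelled DKO, with no overlap and a log2 fold change of 0.28 ± 0.05 (SE; edgeR, adjusted p = 0.0187). Eif2ak4, the amino acid sensing kinase GCN2, rose by 0.22, Mbtps2, the protease that completes ATF6 cleavage, by 0.16, and Atf6b fell by 0.19 on the log2 scale. The other 2, Eif2s1 (higher) and Mbtps1 (lower), are named after their values were seen. Against WT, Eif2b1, a subunit of the eIF2 exchange factor, was the 1 gene of 16 that edgeR called in libraries labelled DKO, at -0.15. The share of all genes was 13%. DESeq2 called 3, beside 17.1%. Of the 27 calls in these lists, the 2 in Ing1-KO for Stc2 and Ero1l held in all 12 fits that left out 1 library, and each other call was lost in at least 2 of them, with adjusted p in edgeR of up to 0.195. With the adipocyte score as covariate, the list calls in libraries labelled DKO against WT were lost for every gene but Cth. Those against Ing1-KO were all lost. These fits called 0.328% and 0.0186% of all genes.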

How the data were processed

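Poly(A) RNA libraries made with a kit that does not record strand were read as 51-base single reads on 7 pooled lanes, per the labels' protocols. The values are gene read counts deposited by the authors, 1 table per library, not normalized. The submitters' processing notes name mouse build mm9/NCBIM37 and, without order, HTSeq 0.5.4, DESeq, Bowtie2 2.1.0 and TopHat2 2.0.9; how HTSeq treated strand and overlaps is not given in the sources used here. Reads assigned to no gene (24.2% to 24.8%) were left out. Symbols matched 32919 of 37991 identifiers.

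Groups came from the titles. Counts of all 12 libraries were fitted in 1 model with a mean per genotype (R 4.3.3, edgeR 4.0.16, TMM factors 0.986 to 1.01, filterByExpr, robust quasi-likelihood test, Benjamini-Hochberg adjustment over 16163 genes, call at an adjusted p under 0.05). The common coefficient of biological variation was 0.105. The comparisons share libraries: 3 use the same WT libraries, so none is independent of the others. SE is |log2 fold change|/√F. CPM uses TMM library sizes. On simulated counts for the DKO comparison with WT, on 15998 genes, the test recovered 74.6%, 88.1% and 98.5% of genes changed 1.5-, 2- and 4-fold, so smaller changes may be missed. Replicates differed by more than sampling noise (chi-square per gene of 6.05 to 81.2).

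Alternatives were DESeq2 1.42.0, other scaling (RLE, upper-quartile), other filters, a replicate block, fits of only the compared libraries, leaving out each library, and the adipocyte score as covariate; a leukocyte score and combined covariates were chosen after the data were seen. limma 3.58.1 was loaded with edgeR. Promoter windows of RefSeq GRCm38.p6 and exon overlaps of GENCODE release 21 were not used to place the authors' reads. The members and lists were chosen with earlier results of these data known. Named were all 37 members, Ing1 and Gadd45a, up to 4 called genes of each pathway list and comparison by smallest adjusted p, and cell type markers.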

Additional observations from a re-analysis of the deposited data

How the results depend on the processing

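The count of members called is small and moved with the setting. Ing1-KO against WT gave 2, and 6 in DESeq2, 13 with the adipocyte score, 16 with both scores, 0 to 4 leaving out each library and, doing so with the adipocyte score, 0 when replicate 1 of Ing1-KO was dropped, 2 when replicate 2 of WT was, and 9, 10, 13, 15 or 16 otherwise. Libraries labelled DKO against WT gave 8, and 5 with no filter, 2 with the adipocyte score, 1 with the leukocyte score, 5 with both, and 2 to 9 leaving out each library. Against libraries labelled Gadd45a-KO they gave 2, and 5 in DESeq2, 0 with the leukocyte score, 6 with both, and 0 to 5 leaving out each library. Against Ing1-KO they gave 2, and 1 with upper-quartile scaling, no filter or only the compared libraries, 0 with the adipocyte score, the leukocyte score or both, and 0 to 6 leaving out each library. Any difference gave 6, and 12 in DESeq2 or with the adipocyte score, 3 with the leukocyte score, 16 with both, and 2 to 11 leaving out each library. The cause of these shifts was not tested, except that leaving out a library removes samples.

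Same-numbered replicates did not steadily deviate together (correlations of -0.189 to 0.251), so no pairing by number was seen. With 3 libraries per genotype that differ in adipocyte score, these values cannot settle whether the numbers pair libraries. With the replicate block, the calls against WT were 0 for the Gadd45a-KO label, 2 for Ing1-KO and 6 for the DKO label, and those of the DKO label were 1 against Gadd45a-KO and 1 against Ing1-KO; any difference had 2 and the interaction 0. The members' calls lost under it against WT were those of Edem1 and Hsp90b1 in libraries labelled DKO.

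The ATF4-arm median in Ing1-KO was -0.184 on the log2 scale and -0.225 to -0.0417 leaving out each library, the last without Ing1-KO replicate 1; the ER-arm median in libraries labelled Gadd45a-KO was 0.0203, and 0.0325 with upper-quartile scaling and 0.0137 to 0.0305 leaving out each library. Dnajb9 in DKO against WT reversed to 0.0719 with the adipocyte score and 0.0943 with both scores. Upper-quartile scaling moved the share of higher calls among all genes from 53.1% to 41.4% against Gadd45a-KO and from 49.6% to 38.0% against Ing1-KO. With 3 libraries per genotype and small changes in the ER arm, a p that missed the threshold does not show that values did not differ.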
